A study of Mus musculus with 6 samples.

Results

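Lmo4 encodes a LIM-only protein, and the transcripts described here are those of Lmo4 and 8 genes of the same protein network in mouse kidney: Lmo2, Lmo7, Ldb1, Ldb2, Lhx1, Lmx1b, Ssbp2 and Ssbp3. These 9 genes were found by symbol among the 54532 named genes of the deposited count table, and all 9 passed the filter on low counts that 15225 genes passed. The set was chosen from a measured value: Lmo4 was lower in the libraries labelled Lpar3-/-, and the other 8 genes were added as LIM-only, LIM-binding or LIM homeobox genes. The difference of Lmo4 between the groups is therefore a description, with no test, and the other members, measured in the same contrast, are given with intervals and no p.

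The libraries were made from kidneys of 2 genotypes, wild type (WT) and the one labelled Lpar3-/-, a loss of LPAR3, a receptor for the signalling lipid lysophosphatidic acid. Both genotypes spent 12 h in a normobaric chamber at 8% oxygen before the kidneys were taken, so low oxygen is common to all 6 libraries and no normoxic kidney was analysed here. Each group had 3 libraries of polyadenylated RNA. The sources used here do not give strain, age, sex, the deleted part of Lpar3 or whether each library came from its own mouse, so the spread between libraries may be technical. Total counts ran from 16011804 to 17991881 per library.

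LIM domains are zinc-binding folds through which proteins bind each other. LIM-only proteins have no DNA-binding domain and act as bridges. LIM homeobox proteins bind DNA as well. Both bind the LIM interaction domain of the adaptors LDB1 and LDB2, which dimerize and can join distant DNA elements, and proteins of the SSBP family bind the LDB adaptors and protect them from degradation. LMO4 and the LIM homeobox proteins compete for the same surface of LDB1. In the kidney, Lhx1 is needed for early nephron formation and Lmx1b for the podocyte, the filtering cell of the glomerulus.

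Lmo4 (ENSMUSG00000028266) lies on the minus strand of chromosome 3 at chr3:144188530-144205220 (GRCm38), and its lower-coordinate end is 2.03 Mb from that of Lpar3 at chr3:146220963-146286186. The GENCODE M21 annotation, on the same build, gives Lmo4 8 transcripts with 7 distinct starts and no exonic base shared with another gene. The RefSeq promoter table (GRCm38.p6) held 13 promoters, for 7 of the 9 members. Lmo2 and Ldb2 were not matched. The 250 bases before 2 of the 3 RefSeq starts of Lmo4 are shown because Lmo4 is the member whose level differed most and the reads per gene cannot tell its starts apart. The first window, chr3:144205256-144205505 (minus strand), precedes the most upstream RefSeq start and lies outside the exons of M21. The second, chr3:144202397-144202646 (minus strand), lies inside the gene and ends at a RefSeq start further downstream. Capitals mark a match to any of 4 motifs, searched on both strands over each 300-base promoter: a hypoxia response core, a GATA site, a homeodomain site and an E-box. The hypoxia core was searched as ACGTG and, with the other purine in first place, as GCGTG. The GATA site was AGATAA. The homeodomain site was searched as TAATTA. The E-box was searched in its symmetric form CAGCTG and in the form that E-proteins also bind, CAGGTG. No motif contains another.
Lmo4 upstream 1: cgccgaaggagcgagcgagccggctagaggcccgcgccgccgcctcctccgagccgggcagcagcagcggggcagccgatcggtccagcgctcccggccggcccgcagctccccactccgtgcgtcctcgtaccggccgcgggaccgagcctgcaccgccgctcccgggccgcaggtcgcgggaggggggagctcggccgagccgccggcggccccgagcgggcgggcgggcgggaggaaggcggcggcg
Lmo4 upstream 2: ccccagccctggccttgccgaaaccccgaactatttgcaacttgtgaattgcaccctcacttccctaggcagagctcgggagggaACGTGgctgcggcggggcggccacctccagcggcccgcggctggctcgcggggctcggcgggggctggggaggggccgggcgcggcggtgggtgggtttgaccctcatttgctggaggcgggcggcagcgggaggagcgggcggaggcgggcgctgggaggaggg

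The 300-base promoter of the first start is 81.3% G and C and that of the second 73.7%, where the median of all 32851 promoters of the table is 52.7%. The first holds none of the 4 motifs. The second holds ACGTG, which begins at position -165 from the start. The remaining RefSeq start lies further into the gene, and its promoter contains the same ACGTG at position -229. A match to the hypoxia core is common: 43.8% of all promoters hold it, against 11.2% for AGATAA, 5.29% for TAATTA and 32.9% for the E-boxes. Among the other members, the hypoxia core occurred in at least 1 promoter of Lmo7, Ldb1, Lmx1b, Ssbp2 and Ssbp3 and not in that of Lhx1. AGATAA occurred in a promoter of Lmo7, Ldb1 and Ssbp3, an E-box in a promoter of Ssbp3, and TAATTA in none of the 13. These matches describe letters in the windows and are no evidence of binding.

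Lmo4 itself, which encodes a LIM-only bridging protein, had 64.7, 70.6 and 66.5 CPM (counts relative to a library size scaled by TMM) in the WT libraries. It had 36.6, 41.2 and 39.6 CPM in the libraries labelled Lpar3-/-. Every library labelled Lpar3-/- lay below every WT library, with means of 67.3 ± 3.04 and 39.2 ± 2.32 CPM (SD, n = 3 each). The counts behind these values were 1147, 1194 and 1099 in WT and 643, 654 and 686 in the libraries labelled Lpar3-/-. The difference was 1.72-fold, a log2 fold change of -0.78 (SE 0.075, 95% interval -0.95 to -0.62; edgeR fit over all 15225 genes). In the same fit 57 genes passed an adjusted p of 0.05, which is 0.374% of those tested, and 38 of them (0.25%) were lower in the libraries labelled Lpar3-/-. Lmo4 was the only one of the 9 members among them, and since its difference chose the set, nothing is read from that count. In whole-kidney RNA, fewer cells of a type and less RNA per cell cannot be told apart.

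Lmo2, the LIM-only protein of blood and endothelial cells, had 10.9, 13.3 and 11.6 CPM in WT and 10.8, 12.7 and 11.8 CPM in the libraries labelled Lpar3-/-. The groups overlapped, with means of 11.9 ± 1.25 and 11.8 ± 0.981 CPM. Its log2 fold change was -0.018 (95% interval -0.30 to 0.27), so a change of Lmo2 of the size seen for Lmo4 lies outside its interval. Endothelial marker transcripts summed to 709 to 772 CPM in WT and 683 to 765 CPM in the other group, and none of the 12 markers passed the test.

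The LDB adaptors, which hold LIM proteins in complexes, differed little between the groups. Ldb1 stood at 62.5, 55.6 and 67.0 CPM in WT and at 60.1, 58.0 and 62.4 CPM in the libraries labelled Lpar3-/-. All 3 of the latter fell within the WT range, with a fitted log2 difference of -0.036 (SE 0.080, 95% interval -0.21 to 0.14). Its partner gene Ldb2 was lower in abundance and more variable: 9.88, 13.4 and 16.7 CPM in WT and 14.2, 12.8 and 11.7 CPM in the libraries labelled Lpar3-/-. The WT libraries alone spanned a wider range than the difference of the means, and the interval of the Ldb2 log2 fold change was wide, from -0.42 to 0.34. In M21, where Ldb1 has other coordinates than in the count table, it shares 177 exonic bases with Pprc1 on the opposite strand. The sources used here do not give the strand setting of the counting, so some reads of these genes cannot be told apart.

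The SSBP proteins, which stabilize the LDB adaptors, showed the same overlap. Ssbp3 had 58.6, 58.2 and 70.3 CPM in WT and 56.7, 60.6 and 58.4 CPM in the libraries labelled Lpar3-/-. WT replicate 3 stood above the other 5 libraries, which lay close together. The log2 fold change of Ssbp3 was -0.090 (SE 0.084, 95% interval -0.27 to 0.094). Ssbp2 had 14.1, 15.3 and 12.3 CPM in WT and 13.4, 13.5 and 13.8 CPM in the other group. The 3 libraries labelled Lpar3-/- sat inside the WT range, with a log2 fold change of -0.037 (95% interval -0.30 to 0.22). Of the exonic bases of Ssbp2, 1765 are shared with the antisense gene 4833422C13Rik, which limits its level in the same way as that of Ldb1.

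The LIM homeobox members were Lhx1 and Lmx1b. Lhx1, a regulator of early nephron formation, had 28.0, 19.2 and 29.3 CPM in WT and 25.4, 27.5 and 27.1 CPM in the libraries labelled Lpar3-/-. WT replicate 2 was the lowest of the 6 libraries and the other 2 WT libraries the highest. Its log2 fold change was 0.062 (SE 0.14, 95% interval -0.24 to 0.36). Lmx1b, a podocyte regulator, was the scarcest member, with 70, 70 and 65 counts in WT and 86, 55 and 73 in the libraries labelled Lpar3-/-. That is 3.95, 4.14 and 3.93 CPM against 4.90, 3.46 and 4.22 CPM, where the second group held both the highest and the lowest library. At this depth the interval of Lmx1b ran from -0.38 to 0.51 on the log2 scale, too wide to exclude a moderate difference either way.

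Podocyte markers are given beside Lmx1b. The sum over 10 markers ran from 719 to 798 CPM in WT and from 761 to 839 CPM in the libraries labelled Lpar3-/-, and none of the 10 passed the test. Of 4 genes reported to depend on Lmx1b in podocytes, none passed either. Col4a3 and Col4a4, collagen chains of the glomerular basement membrane, had log2 fold changes of -0.049 and 0.096. Cd2ap, an adaptor at the slit diaphragm, had one of 0.051.

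Lmo7 carries a LIM domain and a calponin homology domain, is found at cell junctions and the nuclear envelope, and is a LIM-only gene by name rather than by structure. It had 112.9, 103.3 and 115.9 CPM in WT and 116.8, 120.9 and 131.1 CPM in the libraries labelled Lpar3-/-. The groups did not overlap, but the gap was narrow, from 115.9 to 116.8 CPM. The log2 fold change of Lmo7 was 0.15 (SE 0.074), and its 95% interval, -0.0095 to 0.31, reached just past 0. Lmo4 and Lmo7 were the 2 members whose groups did not overlap, in opposite directions, and 13.7% of all tested genes had groups that did not overlap.

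**Figure D1:**
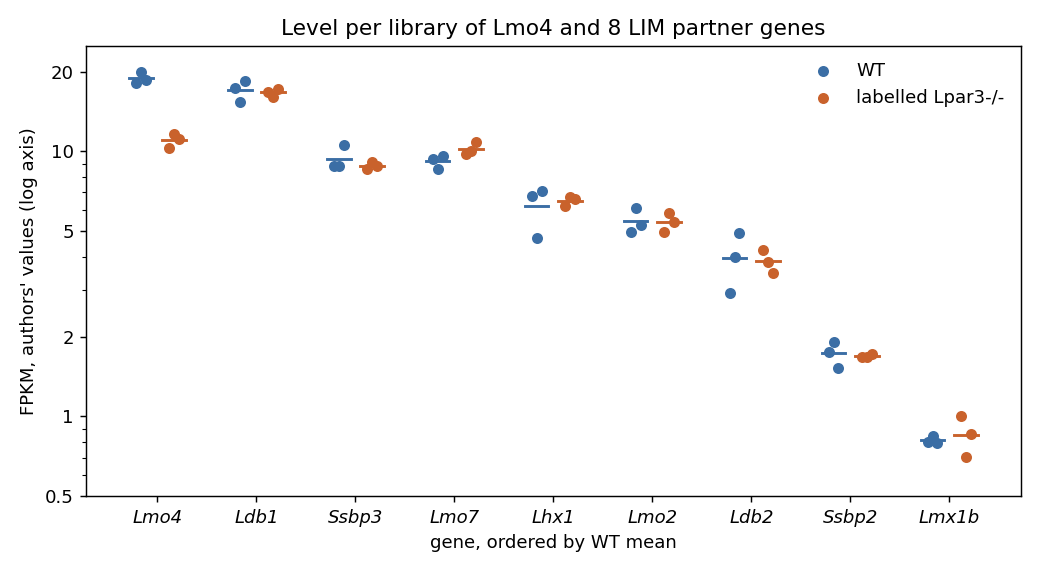
FPKM per library (log axis) for the 9 genes, ordered by their WT mean; each point is a library and each short line a group mean. Lmo4 is the highest gene in WT and falls from 18.9 to 11.0 FPKM on average, while the points of the 2 groups overlap for 7 of the other 8 genes.

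**Figure D2:**
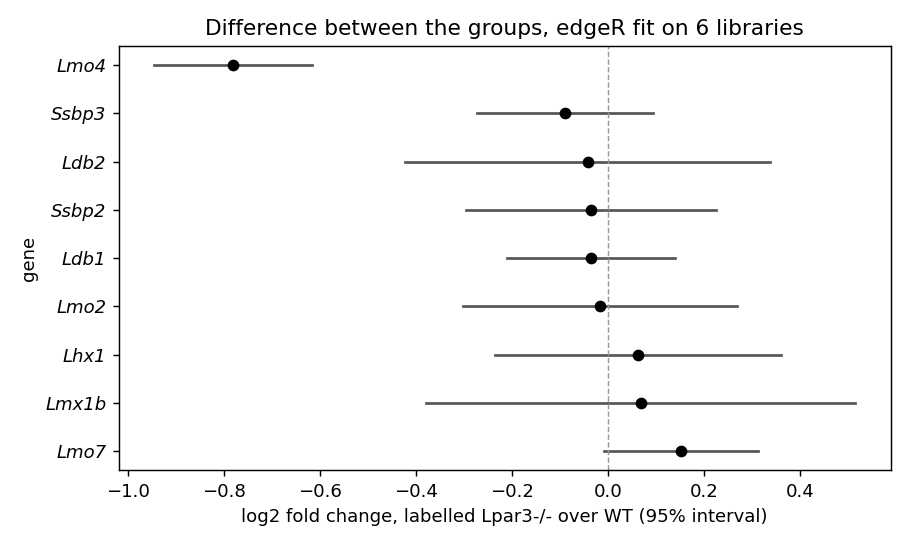
Log2 fold change of each gene, libraries labelled Lpar3-/- over WT, with its 95% interval from the edgeR fit on 6 libraries. The interval of Lmo4 lies at -0.95 to -0.62 and those of the other 8 genes include 0. The difference of Lmo4 chose the set, so its interval is a description and no test.

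Levels of different genes were set side by side in the authors' FPKM, which divides by gene length. In WT, Lmo4 was the most abundant of the 9 at 18.9 ± 0.898 FPKM, followed by Ldb1 at 17.1 ± 1.53 FPKM. The lowest Lmo4 value, 18.2 FPKM, was below the highest Ldb1 value, 18.5 FPKM, so these neighbours did not separate. The authors' FPKM of Ldb1 used a length of 3583 bases, where M21 gives it other coordinates and 4606 exonic bases. For the other members the lengths were the same in both. The level of Ldb1 beside other genes therefore depends on the annotation in both groups. Then came Ssbp3 at 9.39 ± 1.00, Lmo7 at 9.18 ± 0.517, Lhx1 at 6.21 ± 1.32, Lmo2 at 5.45 ± 0.586, Ldb2 at 3.96 ± 1.00, Ssbp2 at 1.73 ± 0.192 and Lmx1b at 0.814 ± 0.0261 FPKM. Neither Ssbp3 and Lmo7 nor Lhx1 and Lmo2 separated beyond their spread. Over all tested genes, the mean FPKM of Ldb1 stood at percentile 80.7, that of Lmo4 at 78.5 and that of Lmx1b at 18.3.

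In the libraries labelled Lpar3-/- the top of the order differed. Ldb1 led at 16.7 ± 0.582 FPKM, and Lmo4, at 11.0 ± 0.637 FPKM, came next and overlapped Lmo7 at 10.2 ± 0.584 FPKM. From Lhx1 down the order was the same as in WT. Here the lowest Ldb1 library, 16.1 FPKM, stood above the highest Lmo4 library, 11.6 FPKM.

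The ratio of Lmo4 to Ldb1 in FPKM states this within each library, where scaling between libraries cancels. It was 1.05, 1.29 and 1.01 in WT and 0.618, 0.721 and 0.645 in the libraries labelled Lpar3-/-. The groups did not overlap, with means of 1.12 ± 0.152 and 0.661 ± 0.0532. Ratios with Ldb1 depend in size on the length used for it, which is common to all libraries. Lmo4 made up 59.1%, 63.1% and 58.5% of the summed FPKM of Lmo4, Lmo2, Lhx1 and Lmx1b in WT, and 45.9%, 46.7% and 46.4% in the libraries labelled Lpar3-/-. Lmo2 stood at 0.288 ± 0.0170 of Lmo4 in WT and at 0.490 ± 0.0124 in the other group. All these ratios contain Lmo4 and so follow from the value that chose the set. Ratios without Lmo4 overlapped: Ssbp2 plus Ssbp3 stood at 0.530 ± 0.0187 of Ldb1 plus Ldb2 in WT and at 0.514 ± 0.0279 in the libraries labelled Lpar3-/-, and Ldb2 at 0.232 and 0.231 of Ldb1. These are ratios of transcripts, and protein was not measured.

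**Figure D3:**
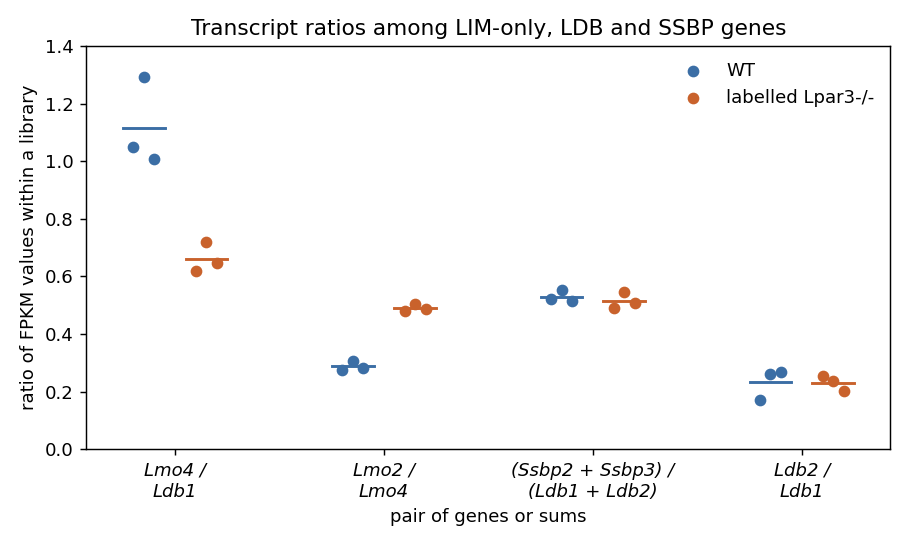
Ratios of FPKM values within each library (points) and group means (lines). The ratios that contain Lmo4 separate the groups (means 1.12 and 0.661 for Lmo4 over Ldb1), and those of the SSBP and LDB genes overlap (means 0.530 and 0.514 for the SSBP over the LDB genes).

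The wider family was described from 4 lists without the members. Of 12 further nuclear LIM genes, 2 were expressed enough to be tested, Lmo1 and Lhx6, and neither passed the test. Lmo1 had 2.15 ± 0.785 CPM in WT and 1.83 ± 0.649 CPM in the libraries labelled Lpar3-/-. Together with the members, the nuclear LIM genes tested in these kidneys were Lmo1, Lmo2, Lmo4, Lhx1, Lhx6 and Lmx1b.

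Of 20 partners of LDB or LMO complexes, 18 were tested and none passed, with 9 log2 fold changes above 0, 9 below 0 and a median of 0.00056. The most abundant per length were Il6st, the gp130 cytokine receptor that LMO4 binds, at 20.1 and 19.9 FPKM in the 2 groups, Tcf3, an E-box binding factor, at 8.95 and 8.30 FPKM, and Rlim, a ubiquitin ligase for LDB1, at 7.71 and 7.76 FPKM. Ssbp4, the remaining SSBP gene, had 7.15 FPKM in WT and 6.76 FPKM in the libraries labelled Lpar3-/-. The lowest p-values among the partners belonged to Cbfa2t3, a corepressor of blood cells, and to Runx1. Cbfa2t3 had 10.5 ± 1.04 CPM in WT and 13.1 ± 1.13 CPM in the libraries labelled Lpar3-/-, a log2 fold change of 0.31 (edgeR adjusted p = 0.496). Runx1 had 2.30 ± 0.949 and 1.31 ± 0.174 CPM, a log2 fold change of -0.80 (edgeR adjusted p = 0.519).

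Of 54 genes whose LIM domains serve mainly the cytoskeleton and cell adhesion, 47 were tested and none passed. Here 17 log2 fold changes were above 0 and 30 below, with a median of -0.050. Over all tested genes 7445 were above 0 and 7780 below, with a median of -0.0036. The most abundant were Csrp2 and Fhl1, muscle-type LIM proteins, at 47.3 and 44.2 FPKM in the libraries labelled Lpar3-/-, and Lasp1, an actin-binding protein, at 32.3 FPKM. Their log2 fold changes were -0.085, -0.18 and -0.026. Unadjusted p-values below 0.05 belonged to Pdlim2 (18.5 ± 1.06 and 22.7 ± 1.09 CPM, edgeR adjusted p = 0.311), Crip2 (43.8 ± 0.840 and 50.3 ± 2.06 CPM, adjusted p = 0.371) and Limk1 (11.0 ± 1.69 and 8.71 ± 0.703 CPM, adjusted p = 0.519). Pdlim2 and Crip2 were higher in each library labelled Lpar3-/- than in any WT library, and Limk1 was lower.

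Over the 4 lists, 71 of 90 genes were tested, 0 were called by edgeR, and 5 (7.04%) had an unadjusted p below 0.05, beside 9.18% of all tested genes. DESeq2 and limma-voom also called 0 of them. Groups that did not overlap were found for 10 of the 71, 6 lower and 4 higher in the libraries labelled Lpar3-/-, a share near the 13.7% of all tested genes. The median over the lists was -0.034.

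**Figure D4:**
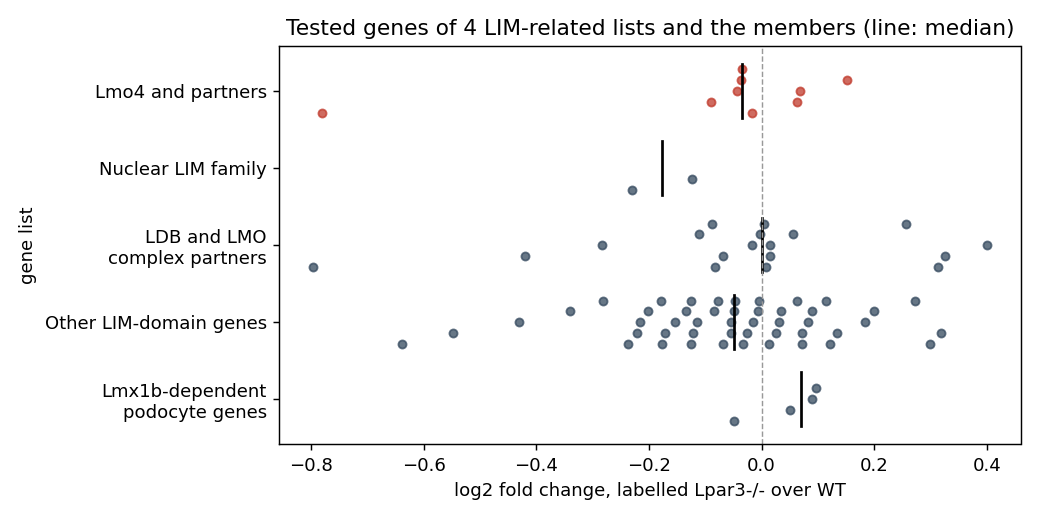
Log2 fold changes of the tested genes in 4 LIM-related lists and of the 9 members, each point a gene and each black line the median of its row. Lmo4 is the point at -0.78 in the top row; the point of similar size in the row of partners is Runx1 at -0.80, a gene of 1.31 to 2.30 CPM that did not pass the test.

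Lmo4 lies near the locus whose genotype defines the groups, so its neighbours were described by position. Lpar3 itself had 36.4, 37.5 and 34.9 CPM in WT and 38.3, 37.3 and 33.5 CPM in the libraries labelled Lpar3-/-. The groups overlapped, and the log2 fold change was 0.0033 (95% interval -0.17 to 0.18). The count of Lpar3 reads therefore does not separate the labelled genotypes, and the direction of each difference is taken from the labels alone.

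Besides Lpar3, 39 genes within 5 Mb of it were tested, and Lmo4 was the only one called; its own call follows from how the set was chosen, by its difference and position. Of the other 38, none was called by edgeR and 3 (7.89%) had an unadjusted p below 0.05, beside 9.18% of all tested genes. Between Lmo4 and Lpar3, 16 genes were tested, none was called by edgeR, 0 had an unadjusted p below 0.05, and their median log2 fold change was -0.0046. Hs2st1, a heparan sulfate sulfotransferase and the nearest tested gene on the Lpar3 side, had 37.1 ± 2.20 CPM in WT and 36.4 ± 3.06 CPM in the libraries labelled Lpar3-/-. The next, Selenof, which encodes a selenoprotein of the endoplasmic reticulum, had 262.2 ± 23.6 and 262.1 ± 6.78 CPM. On the far side, Pkn2, a protein kinase, had 95.7 ± 3.27 and 96.9 ± 1.99 CPM, and Gtf2b, the general transcription factor TFIIB, had 26.5 ± 1.67 and 27.2 ± 0.661 CPM. The groups of these 4 genes, the nearest tested on either side of Lmo4, overlapped. No tested gene lies between Lmo4 and Pkn2, which ends at chr3:142882004. Sh3glb1, on the Lpar3 side, begins at chr3:144683678 and is nearer to Lmo4 than Pkn2.

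Of the 16 genes tested between Lmo4 and Lpar3, 1 had groups that did not overlap, beside 13.7% of all tested genes. It was Bcl10, a signalling adaptor of lymphocyte activation, at 25.9 ± 1.23 and 23.3 ± 0.294 CPM (log2 fold change -0.15, edgeR adjusted p = 0.657). Beyond Lmo4, Gbp3 and Gbp2b, interferon-induced GTPases, had log2 fold changes of -0.82 and -0.64, about the size of that of Lmo4, with wide intervals and edgeR adjusted p-values of 0.413 and 0.452. Gbp3 had 10.2 ± 5.44 CPM in WT and 5.78 ± 0.808 CPM in the libraries labelled Lpar3-/-. Kyat3, a kynurenine aminotransferase, was the other neighbour with an unadjusted p below 0.05, at a log2 fold change of 0.19 (adjusted p = 0.519). Outside the 5 Mb window, 56 of 15185 genes were called (0.369%).

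**Figure D5:**
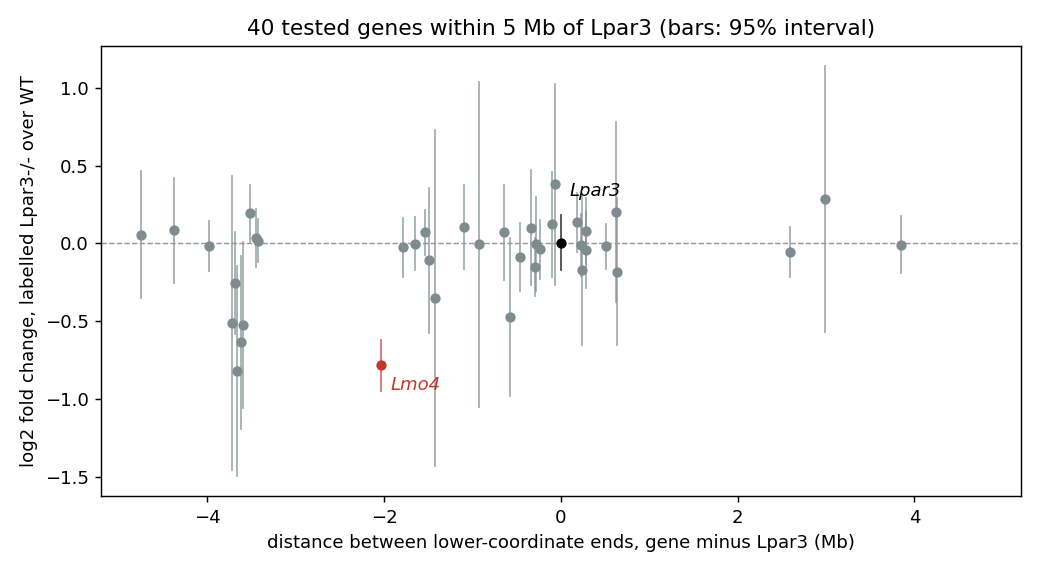
Log2 fold change and 95% interval of Lpar3 (black), Lmo4 (red) and the other tested genes within 5 Mb, against the distance between lower-coordinate ends in Mb. Lmo4, 2.03 Mb from Lpar3, sits at -0.78 with a narrow interval, a description, since its difference chose the set. The group of points left of it below 0, with wide intervals, holds the Gbp genes.

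The genes whose pattern over the 6 libraries was most like that of Lmo4 were ranked by Pearson's r of log2(CPM + 1). The ranking covered 12755 tested genes with a mean of at least 1 CPM, and predicted and clone-named genes were left out of it. The 6 libraries fall into 2 groups, so any gene whose groups differ with little spread has a large r, and r is given as a description. It was above 0.9 for 176 genes and below -0.9 for 162. The closest were Rdh16, a retinol dehydrogenase (r = 0.995), Sqstm1, the autophagy receptor p62 (0.993), Col8a1, a collagen chain (0.993), Ddit3, the stress factor CHOP (0.991), and Acsl4, a fatty acid ligase (0.987). Of these, Col8a1 went from 30.6 ± 2.53 to 6.86 ± 0.228 CPM and Acsl4 from 114.3 ± 9.0 to 76.7 ± 2.03 CPM, and both passed the test (edgeR adjusted p = 3.85e-06 and 0.00705). Rdh16, Sqstm1 and Ddit3 did not pass.

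The most opposite patterns were those of Stim1, a calcium sensor (r = -0.996), Serpinc1, antithrombin (-0.995), Gpt, alanine aminotransferase (-0.992), Meis2, a homeobox gene (-0.988), and Pmf1 (-0.987). Gpt went from 42.4 ± 5.07 to 97.0 ± 13.8 CPM and Serpinc1 from 3.60 ± 0.432 to 8.58 ± 0.665 CPM, and both passed (edgeR adjusted p = 0.000549 and 0.0102). None of the other members was near these lists. Their r with Lmo4 was 0.42 for Ssbp3, 0.22 for Ssbp2 and Lmo2, 0.10 for Ldb1, 0.045 for Ldb2, -0.27 for Lhx1, -0.28 for Lmx1b and -0.73 for Lmo7.

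The kidney label matched the markers: Slc34a1, of the proximal tubule, had 2612 ± 96.6 CPM in WT, Umod, of the loop of Henle, 2342 ± 147 CPM, and Podxl, of the podocyte, 216 ± 6.26 CPM. Lmo4 is made in many cell types, so marker sums are given beside it. Loop of Henle markers (5 genes, 4 with log2 fold changes above 0 and 1 below) ran from 3449 to 3847 CPM in WT. They ran from 4185 to 4436 CPM in the libraries labelled Lpar3-/-. Macrophage markers (8 genes, all with log2 fold changes below 0) ran from 95.4 to 122.8 CPM in WT and from 84.3 to 89.4 CPM in the other group. The ranges did not overlap for either list, those of every other marker list overlapped, and no single marker passed the test. Over all tested genes, 13.7% had groups that did not overlap, and log2 fold changes were above 0 for 7445 and below 0 for 7780. Umod and Slc12a1 made up most of the loop sum. Their groups and those of Cldn19 did not overlap, while those of Kcnj1 and Cldn16 did. Among macrophage markers, C1qa, C1qc and Adgre1 had groups that did not overlap. The groups of the others overlapped, with Csf1r, the most abundant, at 51.1 ± 5.52 and 49.5 ± 1.09 CPM. Proximal tubule sums overlapped (7842 to 8641 and 8561 to 9179 CPM), but 3 of these markers had groups that did not overlap. Aqp1 (log2 fold change 0.25) and Slc5a12 (0.38) were higher in the libraries labelled Lpar3-/-, and Slc5a2 (-0.30) was lower. Erythroid sums overlapped (352 to 632 and 325 to 572 CPM). Fibroblast sums did as well (271 to 428 and 291 to 311 CPM), with 8 of 9 fibroblast log2 fold changes below 0. The adipocyte sum overlapped too (149 to 271 and 114 to 168 CPM), but most of it is Fabp4, at 156.5 ± 43.8 CPM in WT and 118.4 ± 20.95 CPM in the other group, and all 6 adipocyte markers had log2 fold changes below 0. Cidec, a lipid droplet protein, had 23.7 ± 8.48 CPM in WT and 6.98 ± 4.10 CPM in the libraries labelled Lpar3-/-, Adipoq, the hormone adiponectin, 10.1 ± 4.09 and 3.63 ± 1.87 CPM, and Plin1, perilipin, 8.19 ± 2.42 and 2.90 ± 1.31 CPM. The groups of these 3 did not overlap, with log2 fold changes of -1.78, -1.49 and -1.51 (edgeR adjusted p = 0.0525, 0.122 and 0.0641). The sums also overlapped for the distal tubule and collecting duct (1244 to 1445 and 1343 to 1488 CPM), lymphocytes (3.73 to 7.81 and 2.45 to 5.03 CPM), urothelium (12.9 to 25.3 and 11.8 to 26.5 CPM) and adrenal (4.12 to 5.32 and 3.99 to 5.32 CPM), where 2 of 5 adrenal markers had no count in any library. The part of cell makeup in the Lmo4 difference was not tested.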

How the data were processed

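RNA sequencing of 6 mouse kidney libraries was analysed from the deposited tables. The counts are whole reads per gene made by the authors with HISAT2 2.0.5 and featureCounts 1.5.0-p3 on GRCm38, per the submitters' processing notes, which also name DESeq2 1.20.0. The sources used here do not give the annotation release or the strand setting. The deposited FPKM values equal the authors' counts divided by gene length and a library size (largest relative deviation 4.11e-08 over genes with at least 20 counts). The table's 377 rows without a gene name (0.259% to 0.362% of counts) were left out.

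Groups and replicate numbers came from the sample titles. The test was edgeR 4.0.16 in R 4.3.3: TMM, the default expression filter (minimum count 10), the quasi-likelihood F-test without covariates, and Benjamini-Hochberg adjustment over 15225 genes. A gene is called at an adjusted p below 0.05. The common coefficient of variation between replicates was 10.5%. CPM uses TMM-scaled library sizes, and errors are SD over 3 libraries. The test was tried on simulated data first. The values of 1 listed gene are not reported here.

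The members and the gene lists were chosen with earlier results of these data known. Named besides the members were list genes with an unadjusted p below 0.05 and the most abundant genes of each list. Also named were the nearest tested neighbours of Lmo4 on each side, and called genes near Lpar3 or with groups that did not overlap. The 5 genes most like and the 5 most unlike Lmo4 were named too. Gbp3, Gbp2b, Kyat3, Cidec, Adipoq, Plin1, Aqp1, Slc5a12 and Slc5a2 were named after their values were seen. Alternatives were other normalizations, filters, tools (DESeq2 1.42.0, limma 3.58.1) and windows, the replicate number as a block, and each library left out in turn.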

Additional observations from a re-analysis of the deposited data

How the results depend on the processing

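The log2 fold change of Lmo4 stayed between -0.82 and -0.73 in all 16 alternatives that refit the data, the 6 fits with 1 library left out included, a description, since this value chose the set. With limma on log2(FPKM + 1) and no filter, 0 members and 0 genes near Lpar3 were called. No member besides Lmo4 was called in any alternative. Lmo7 kept its sign in all 16 (0.10 to 0.19), and the signs of Lmo2, Ldb1, Ldb2, Lhx1, Lmx1b, Ssbp2 and Ssbp3 each changed in at least 1 fit with a library left out.

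The number of genes called over all genes depended on the processing. It was 57, against 520 with no filter on low counts, 176 with DESeq2, and 9, 13 and 4 with limma on log2(FPKM + 1), on log2(FPKM + 0.1) and on log2(FPKM + 1) with no filter. It ran from 12 to 149 with 1 library left out: 12 without replicate 1 or without replicate 3 labelled Lpar3-/-, 26 without replicate 2 labelled Lpar3-/-, and 149 without WT replicate 1. With no filter, 1 gene of the LIM lists was called, Fblim1, and 4 genes near Lpar3 (Cyr61, Gbp2b, Gbp3 and Lmo4). Cyr61 lies between Lmo4 and Lpar3, where the main fit called no gene. A window of 20 Mb held 2 called genes, Lmo4 and Gm43429. Without Lmo4, 18 of 143 tested genes in it (12.6%) had an unadjusted edgeR p below 0.05, beside 9.14% outside it. In a window of 10 Mb without Lmo4 the share was 6.33%. With the replicate number as a replicate block, 80 genes were called. Same-numbered libraries deviated from their group means with correlations of 0.011, 0.031 and 0.067, and only those numbered 3 correlated best with their own number, so the numbers were not taken as pairs.

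With 3 libraries a group, the intervals of the 8 other members do not exclude small differences, and that of Lmx1b, at 55 to 86 counts, is the widest.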
